A study of Mus musculus with 6 samples.

Results

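Mesoderm explants of gastrulating mouse embryos that had been treated with either of a pair of inhibitors, PD or YZ9, were taken as a single treated side of 4 libraries and set against the 2 libraries of untreated explants. Of 46078 genes listed, 15585 had at least 10 counts in at least 2 of the 6 libraries and were kept. The description turns on the 2900 kept genes for which all 4 treated libraries lay on the same side of both controls in CPM, counts relative to the scaled size of the library. The explants came from E7.25 embryos that the labels call wild type and the series text assigns to the TCF/Lef:H2B-GFP reporter strain. All were pieces of dissected mesoderm kept in culture on fibronectin in medium with rat serum, and scraped off for RNA. PD was given at 1 µM and YZ9 at 10 µM, each for 16 h, and the control explants are labelled only as control, with no vehicle named. PD is given only by these letters. YZ9 blocks PFKFB3, the enzyme that makes an activator of phosphofructokinase and so of glycolysis. Whether the 2 libraries within a group stem from separate embryos is not in the labels. Those of each inhibitor read as opposite in sex, so they came from different embryos. Both controls read as male, and the spread between them may be technical. The p-values measure only the spread between these libraries.

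During gastrulation, cells of the epiblast, an epithelium held together by E-cadherin and tight junctions, pass through the primitive streak and leave it as mesoderm, which is mesenchymal and migrates over a matrix that contains fibronectin. This change, an epithelial to mesenchymal transition, runs through SNAI and ZEB repressors that silence epithelial genes. FGF signalling through ERK drives it, and glucose use has been linked to the same steps.

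Total counts per library were between 21253194 and 27810161, and replicates differed by a mean chi-square for each gene of 55.2 in controls, 96.9 under PD and 62.6 under YZ9, far over the 1 that sampling alone gives. Both controls, PD replicate 1 and YZ9 replicate 1 read as male from Xist and Y-linked counts, and PD replicate 2 and YZ9 replicate 2 as female. Treatment and sex are therefore partly mixed. Counts are also given for the male libraries alone and for the treated libraries of replicate 2 alone against both controls.

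Treated libraries lay above both controls for 1304 genes (8.37% of genes kept) and below both for 1596 (10.2%), in all 2900 (18.6%). With CPM of total counts, without scaling, the numbers were 1589 above and 1259 below, so the balance of the directions rests on the scaling. In simulated data for the pooled comparison, 13.8% of the genes given no change also lay beyond both controls. Much of the 18.6% can therefore arise without any change. The shares of all genes, 8.37% above and 10.2% below, hold such genes too. A log2 fold change of at least 1 went with 451 of the genes above (2.89% of genes kept) and 623 of those below (4%). Over all genes kept the median log2 fold change was 0.02. The median was 0.66 for genes above and -0.74 for genes below, values that the choice of genes fixes in sign. By edgeR's quasi-likelihood test no gene passed: 0 were higher and 0 lower at an adjusted p under 0.05 (smallest adjusted p = 0.257), with 1303 genes at an unadjusted p under 0.05 (8.36%), 1227 of them among the 2900. DESeq2 on the same genes called 157 higher and 156 lower, 307 of these 313 beyond both controls, and limma-trend called 0. The tests and the position of a gene use the same libraries and sides, so their overlap is no separate support. An exact test of 4 libraries against 2 cannot give a 2-sided p below 0.133, so the counts here are descriptions. With a library left out fewer values must hold their side. The numbers were then 3728 above and 3715 below without control replicate 1, 2736 and 2953 without control replicate 2, and 2022 and 2433 without PD replicate 1.

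**Figure D1:**
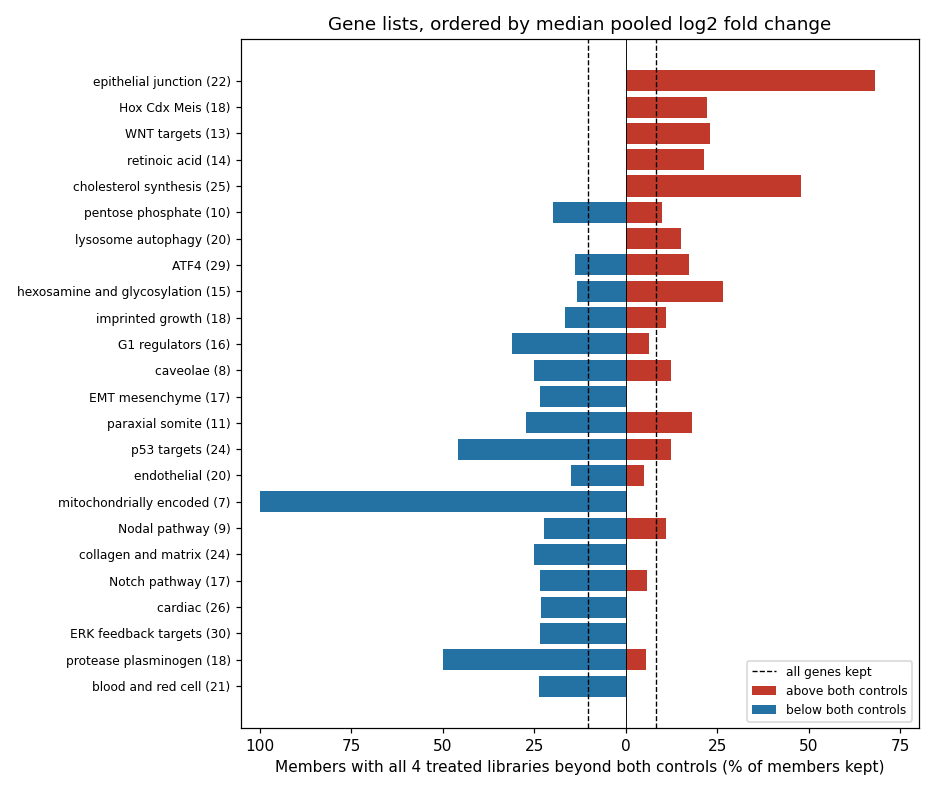
Percentage of the kept members of each gene list whose 4 treated libraries lay above (red, right) or below (blue, left) both controls, with the number of kept members in brackets and dashed lines at the shares of all genes kept, 8.37% above and 10.2% below. Lists with at least 7 kept members and at least 15% of them beyond both controls in a direction are drawn, ordered by median log2 fold change. The lists of epiblast, endoderm, ectoderm and trophoblast markers are left out. Among the lists drawn, epithelial junction and cholesterol synthesis genes reach furthest to the right, and mitochondrially encoded, protease and p53 genes furthest to the left.

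Many genes of epithelial junctions lay above the controls. Of 22 kept members, 15 lay above both controls (68.2%, against 8.37% of all genes) and 0 below (against 10.2%). The median log2 fold change was 3.35 where all genes had 0.02, and was the same with Cldn3, which had no control count, at its bound. Both values include Cldn3, Cldn9, Crb3, Esrp1 and Rab25, which had under 10 counts in each control. These genes passed the filter only through treated libraries, which favours a position above. Of all kept genes with so few control counts, 206 of 536 lay above. Cdh1 encodes E-cadherin, the adhesion molecule of adherens junctions (ENSMUSG00000000303, chromosome 8, 106603351 to 106670246, GRCm38). Its level was 1.83 and 3.80 CPM in controls, 79.8 and 21.6 CPM under PD, and 113 and 30.7 CPM with YZ9 (log2 fold change 4.44, SE 0.86). The lowest treated library thus stood well above the higher control, and within each inhibitor replicate 1 was the higher. The same order of libraries recurred in the other members with large differences.

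The epithelial genes can be followed by role: surface and tight junction genes, polarity and trafficking genes, then regulators. Epcam, an adhesion molecule of epithelia, was at 0.861 and 2.52 CPM in controls, 51.9 and 9.21 under PD, and 38.4 and 17.6 under YZ9 (log2 fold change 4.11, SE 0.88). Cldn6, a claudin of embryonic tight junctions, was at 0.262 and 8.27 CPM in controls, 448 and 56.5 under PD, and 199.7 and 75.5 under YZ9 (log2 fold change 5.51, SE 1.51). The controls themselves differed widely in Cldn6, but neither reached a treated library. Cldn7 was at 0.374 and 0.902 CPM in controls and between 4.95 and 30.2 CPM in the treated libraries. Cldn3 had 0 counts in both controls and 100 over the treated libraries, at least 17.3-fold higher against a floor of 3 counts over the controls. Crb3, a Crumbs protein that sets apical polarity, was at 0.3 and 0.0752 CPM in controls, 14.3 and 2.01 under PD, and 7.97 and 2.53 under YZ9. Rab25, a GTPase of epithelial membrane recycling, had 1 count over the controls and 160 over the treated libraries, a ratio of 82.9 (95% counting interval 14.7 to 3290). Esrp1, which directs epithelial splicing, was at 0.0374 and 0.226 CPM in controls, 8.34 and 2.65 under PD, and 11.1 and 4.28 under YZ9. Grhl2, a transcription factor of epithelia, was at 0 and 0.526 CPM in controls and between 1.33 and 5.10 CPM in the treated libraries. Levels of Esrp1, Crb3 and Grhl2 were low in every library. Krt8, a keratin that the explants expressed throughout, was at 2682 and 2070.5 CPM in controls and between 3117 and 4859 CPM in treated libraries, a far smaller step (log2 fold change 0.68, SE 0.22), and its partner Krt18 overlapped the controls. Exons of Crb3, Esrp1, Cldn3, Krt7 and Krt8 overlap genes on the opposite strand, and the library kit keeps no strand, so those reads cannot be assigned.

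The epithelial members can be read beside their promoters, since SNAI and ZEB repressors bind the E-box CACCTG. The letters were searched on both strands (as CACCTG or CAGGTG) in the window from 250 bases before to 50 after each start, taken from RefSeq on GRCm38.p6. Of the 15 epithelial members above both controls, 11 had a window and 10 of these held the letters (90.9%), against 21.3% of genes kept with a window, 22.6% of all genes with a window and 20.2% of all windows. The share was 27.1% of all genes above both controls and 21.7% of those below. Spint1 had a window without the letters, and Cdh1, Cldn9, Esrp1 and Grhl2 had no entry. Other motifs searched the same way were AACNGGTT, the grainyhead motif, in 1 of the 11 genes (9.09%, against 2.12% of genes kept and 2.35% of all genes), CCGGAAG, an ETS motif, in 3 (27.3%, against 18.9% and 9.93%), and TGANTCA, the AP-1 motif, in 2 (18.2%, against 6.21% and 8.97%). Epithelial list members that overlapped the controls were not counted apart. Whether the share of CACCTG goes with the list or with the position above the controls was therefore not tested. A match describes letters and shows no binding. The 4 windows printed here belong to members with at least 2 matches each, and the capitals mark CACCTG or CAGGTG. They are Epcam at chr17:87635729-87636028 (plus strand), Cldn6 at chr17:23679115-23679414 (plus strand), Crb3 at chr17:57061951-57062250 (plus strand) and Rab25 at chr3:88548230-88548529 (minus strand).
Epcam: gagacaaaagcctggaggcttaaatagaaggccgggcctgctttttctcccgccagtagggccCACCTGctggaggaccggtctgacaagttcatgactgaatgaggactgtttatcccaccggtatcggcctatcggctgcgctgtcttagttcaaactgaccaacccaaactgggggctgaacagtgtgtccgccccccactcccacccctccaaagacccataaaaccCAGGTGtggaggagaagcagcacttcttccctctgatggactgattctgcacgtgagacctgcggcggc
Cldn6: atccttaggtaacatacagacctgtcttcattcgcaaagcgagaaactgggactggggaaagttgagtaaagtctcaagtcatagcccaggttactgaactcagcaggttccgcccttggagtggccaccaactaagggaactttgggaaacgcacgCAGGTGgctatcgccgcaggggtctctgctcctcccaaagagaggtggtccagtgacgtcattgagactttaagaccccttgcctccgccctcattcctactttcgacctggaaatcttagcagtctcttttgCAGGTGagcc
Crb3: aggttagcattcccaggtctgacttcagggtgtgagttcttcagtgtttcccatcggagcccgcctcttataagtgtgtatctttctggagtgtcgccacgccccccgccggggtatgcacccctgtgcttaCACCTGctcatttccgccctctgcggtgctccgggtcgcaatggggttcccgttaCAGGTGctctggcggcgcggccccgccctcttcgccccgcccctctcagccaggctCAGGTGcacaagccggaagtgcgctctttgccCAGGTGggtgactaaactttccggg
Rab25: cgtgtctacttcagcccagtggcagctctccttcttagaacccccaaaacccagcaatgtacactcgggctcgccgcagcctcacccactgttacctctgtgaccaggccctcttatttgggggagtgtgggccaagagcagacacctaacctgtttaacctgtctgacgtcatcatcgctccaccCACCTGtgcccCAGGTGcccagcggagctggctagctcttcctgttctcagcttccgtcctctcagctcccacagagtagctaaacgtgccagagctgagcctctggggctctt

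The few genes of the transition and of the mesenchymal state that cleared the controls lay below, and Zeb2 was the only SNAI or ZEB repressor among them. Of 17 kept members of the EMT and mesenchyme list, 4 lay below both controls (23.5%, against 10.2% of all genes) and 0 above. The other 13 overlapped. Zeb2, a repressor that binds CACCTG pairs, was at 113 and 112 CPM in controls, 66.5 and 75.1 under PD, and 62.5 and 50.8 under YZ9 (log2 fold change -0.82, SE 0.17). Vim, the intermediate filament of mesenchymal cells, was at 1282 and 1079.95 CPM in controls and between 547 and 852 CPM in treated libraries. The others below were Fn1 and Tcf4. Exons of Zeb2 and Fn1 overlap genes on the opposite strand. Zeb1, Snai1, Snai2 and Twist1, further regulators of the transition, and Cdh2, which encodes N-cadherin, all had treated libraries that overlapped the controls. Log2 fold changes of the list members ran from -0.823 to 1.52, and that of Snai2 was positive. The summed level of the list was 5002 to 5466 CPM in controls and 3269 to 5340 CPM in treated libraries.

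In smaller sets of treated libraries with the same controls, the 15 epithelial members above could not become fewer. Such counts are therefore no separate support, and the number of all genes above rises too. In the male libraries alone 19 of the 22 members lay above both controls (median log2 fold change 3.92), and 2735 of all genes. With the treated libraries of replicate 2 alone 15 lay above and 1 below, and 3084 of all genes lay above. The epithelial median was then 1.91. Some markers of epithelial neighbours of the mesoderm also lay above the controls. Of these, Epcam and Krt7 are members of the epithelial list too, and Slc2a3 of the glycolysis list, so they are no separate support. Of all genes kept 8.37% lay above both controls and 10.2% below. For the marker lists, in the order that follows, the shares above were 41.7%, 30%, 8.33%, 0%, 22.2% and 7.14%. The shares below were 8.33%, 10%, 16.7%, 22.2%, 0% and 21.4%. These lists are short, so their shares rest on few genes. Utf1, L1td1, Foxa1 and Foxa2 had under 10 counts in each control. The filter kept them only through treated libraries, which favours a position above. Among epiblast markers 5 of 12 kept lay above both controls (Epcam, Utf1, L1td1, Slc7a3, Pou3f1) and 1 below (Otx2), and the summed level was 696 to 724 CPM in controls and 355 to 779 CPM in treated libraries. Pou5f1 and Nanog, which define the epiblast, stayed under the count filter. Of definitive endoderm markers 3 of 10 lay above (Slc2a3, Foxa1, Foxa2) and 1 below, with a summed level of 399 to 568 CPM in controls and 1251 to 2038 CPM in treated libraries, of which Slc2a3 alone gives most. Foxa2, a regulator of endoderm, was at 0 and 0.15 CPM in controls, 6.49 and 3.18 under PD, and 1.03 and 0.944 under YZ9. Visceral endoderm markers had 1 of 12 above and 2 below (373 to 421 CPM in controls, 293 to 502 in treated libraries), and Hnf4a and Apoc2 were at 0 counts in every library. Ectoderm markers had 0 of 9 above and 2 below (14.7 to 22.0 CPM in controls, 12.9 to 57.3 in treated libraries), with Sox1 and Neurog2 at 0 counts. Trophoblast markers had 2 of 9 above, Krt7 and Ets2 (282 to 417 CPM in controls, 395 to 929 in treated libraries), with Prl2c2 and Tpbpa at 0 counts. Parietal endoderm markers had 1 of 14 above and 3 below (6889 to 8183 CPM in controls, 5381 to 7800 in treated libraries). The part of other cell types in the epithelial result was not tested, and in whole explants more cells of a type and more RNA per cell cannot be told apart.

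Genes outside the epithelial list were also among the 12 with the widest gaps above the controls. The gap is the distance, on the log2(CPM + 0.5) scale, between the nearest treated and control libraries; it reached at least 1 for 37 genes above and 69 below, and was under 0.1 for 513 and 571. Tmprss2, a serine protease of epithelial surfaces, had 3 counts over the controls and 716 over the treated libraries, a ratio of 124 (95% counting interval 42.1 to 601). Cdcp1, a surface protein of epithelial cells, was at 0 and 0.376 CPM in controls, 31.7 and 3.02 under PD, and 23.8 and 9.67 under YZ9. Hoxb1, a homeobox gene described with the patterning genes, was among the 12 as well. Ap1m2, the epithelial form of a clathrin adaptor subunit, was between 3.34 and 9.88 CPM in treated libraries and at most 0.639 CPM in controls. Arhgap8, a GTPase-activating protein, was at 1.5 and 1.24 CPM in controls and between 6.54 and 12.2 CPM in treated libraries, and its exons overlap a predicted gene on the opposite strand.

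**Figure D2:**
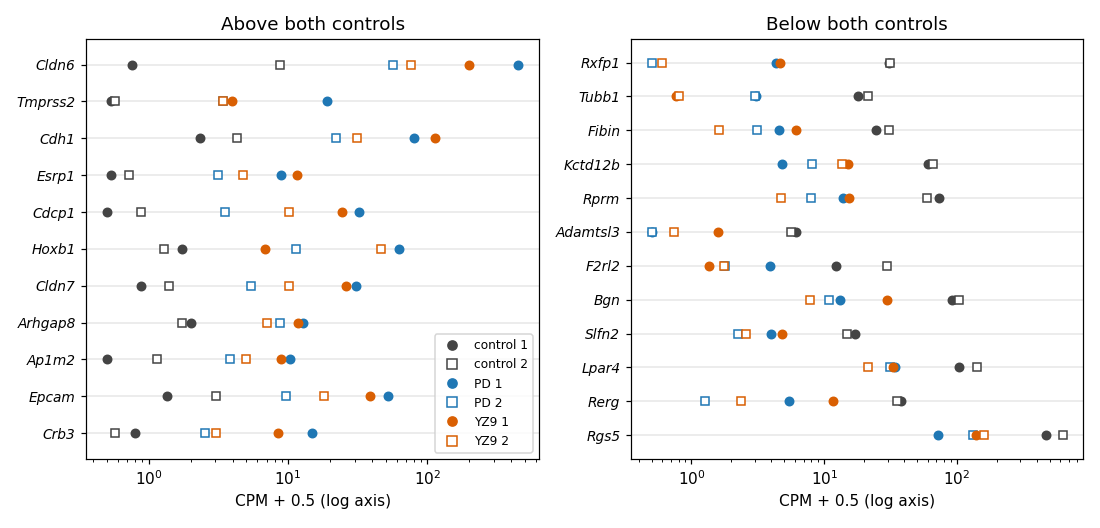
CPM plus 0.5 (log axis) in each of the 6 libraries for 11 of the 12 genes with the widest gap above both controls (left) and the 12 with the widest gap below (right), among genes with a mean of at least 5 CPM on the higher side. Filled circles are replicate 1 and open squares replicate 2, in grey for control, blue for PD and orange for YZ9; for most genes on the left replicate 1 of each inhibitor lies furthest from the controls.

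The glycolysis list as a whole was near the shares of all genes. Of 30 kept members 3 lay above both controls (10%, against 8.37% of all genes) and 4 below (13.3%, against 10.2%), and the median log2 fold change was 0.09, which turned to -0.01 without control replicate 2 and to -0.003 without PD replicate 2. Slc2a3, a high-affinity glucose transporter of embryonic cells (ENSMUSG00000003153, chromosome 6, 122727809 to 122801640), was at 454 and 281 CPM in controls, 1154 and 1924 under PD, and 1404 and 1711 under YZ9 (log2 fold change 2.07, SE 0.29). All 4 treated libraries were more than 2 times the higher control, and the value was 2.06 for PD and 2.08 for YZ9, each against the same controls. Slc2a1, the transporter that most tissues express, was at 2067 and 1167 CPM in controls, 3119.7 and 6281 under PD, and 2503 and 3348 under YZ9 (log2 fold change 1.24, SE 0.42), and its exons overlap a gene on the opposite strand. Slc16a1, which carries lactate and pyruvate across the membrane, was at 85.8 and 91.7 CPM in controls, 139 and 123 under PD, and 147 and 195 under YZ9 (log2 fold change 0.77, SE 0.20). The 3 members above the controls are transporters, but not every transporter was above: Slc16a3, a lactate carrier, was at 19.9 and 8.31 CPM in controls and between 6.19 and 21.5 CPM in treated libraries.

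The 4 glycolysis members below both controls were Hk2, Pgam2, Pfkp and Ldhb. Hk2, a hexokinase that commits glucose to metabolism, was at 123 and 111 CPM in controls, 61.0 and 68.8 under PD, and 87.2 and 87.1 under YZ9 (log2 fold change -0.63, SE 0.18). Pgam2, a phosphoglycerate mutase, was at 13.1 and 16.2 CPM in controls, 3.77 and 2.82 under PD, and 7.92 and 11.3 under YZ9. Pfkp, the platelet form of phosphofructokinase, lay only just below: its highest treated library was at 151 CPM and its lower control at 154 CPM. Pfkfb3, on whose product YZ9 bears, was at 70.4 and 33.2 CPM in controls, 42.7 and 24.4 under PD, and 91.8 and 29.7 under YZ9, and the sides overlapped. Ldha, a lactate dehydrogenase subunit, overlapped as well, with 724 and 715 CPM in controls and between 489 and 1071 CPM in treated libraries. Neither the citric acid cycle list (0 above and 1 below of 22) nor the oxidative phosphorylation list of nuclear genes (0 above and 2 below of 32) went beyond the shares of all genes.

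**Figure D3:**
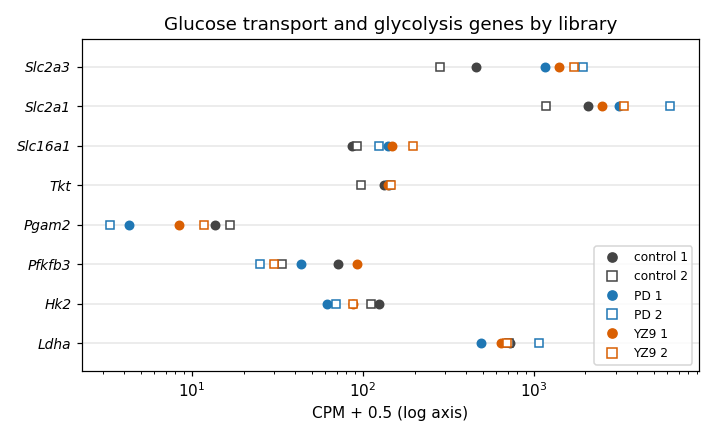
CPM plus 0.5 (log axis) in each library for 3 transporters and 5 enzymes of glucose metabolism, with symbols by group and replicate as in the legend. Slc2a3, Slc2a1 and Slc16a1 have all 4 treated libraries to the right of both controls, Hk2 and Pgam2 have them to the left, and Ldha and Pfkfb3 overlap.

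The 12 widest gaps below the controls held genes of several kinds, among them 3 receptors. Lpar4, a receptor for lysophosphatidic acid (ENSMUSG00000049929, chromosome X, 106920625 to 106933900), was at 103 and 141 CPM in controls, 33.5 and 31.0 under PD, and 32.5 and 20.7 under YZ9 (log2 fold change -2.05, SE 0.23). All 4 treated libraries lay far under the controls, and YZ9 replicate 2 stood apart as the lowest. Rgs5, which shortens signalling by G proteins, was at 464 and 628 CPM in controls, 72.0 and 131 under PD, and 138 and 158 under YZ9 (log2 fold change -2.13, SE 0.29). Rxfp1, the relaxin receptor, was at 30.3 and 30.7 CPM in controls, 3.84 and 0 under PD, and 4.16 and 0.101 under YZ9. F2rl2, a receptor cleaved by thrombin, was at 11.8 and 29.1 CPM in controls and between 0.851 and 3.38 CPM in treated libraries. Other genes with wide gaps below followed no single role. Rprm, which halts the cell cycle and is known as a p53 target, was at 72.7 and 58.7 CPM in controls, 13.4 and 7.48 under PD, and 15.0 and 4.25 under YZ9 (log2 fold change -2.71, SE 0.45). Rerg, a RAS-like GTPase, was at 37.6 and 34.7 CPM in controls and between 0.764 and 11.1 CPM in treated libraries, and Slfn2, a Schlafen protein, at 16.6 and 14.3 CPM and between 1.73 and 4.30 CPM. Fibin, which encodes a secreted factor, was at 24.2 and 30.3 CPM in controls, 4.07 and 2.61 under PD, and 5.64 and 1.11 under YZ9. Kctd12b was at 60.0 and 65.6 CPM in controls and between 4.34 and 14.7 CPM in treated libraries. Upf1, the helicase of nonsense-mediated RNA decay, is outside the naming rule and was at 39.7 and 43.3 CPM in controls, 13.8 and 15.1 under PD, and 16.8 and 13.1 under YZ9 (log2 fold change -1.5, SE 0.18). Exons of Upf1 overlap Cers1 and Gdf1 on the opposite strand, so these reads may come from either strand. Npy, also outside the rule, had 77 counts over the controls and 3 over the treated libraries, a ratio of 49.5 (95% counting interval 16.3 to 245).

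Members of the collagen and matrix list and of the protease list were found below the controls. Of 24 kept collagen and matrix genes 6 lay below both controls and 0 above (25%, against 10.2% of all genes), with a median log2 fold change of -0.41, which was -0.23 without control replicate 1. The number below was 13 without PD replicate 2, 11 without control replicate 2 and 10 without YZ9 replicate 1. Of all genes 2042, 2953 and 2032 then lay below, against 1596 with every library, since fewer values must hold their side. The list number was 7 without PD replicate 1, and 6 without control replicate 1 or YZ9 replicate 2. Vcan encodes versican, a large proteoglycan of embryonic matrix (ENSMUSG00000021614, chromosome 13, 89655312 to 89742509). It was at 487 and 456 CPM in controls, 236 and 215 under PD, and 233 and 189 under YZ9 (log2 fold change -1.11, SE 0.13), so the treated libraries lay close together and far under both controls. Nid1, a basement membrane linker, was at 416 and 347 CPM in controls, 152 and 186 under PD, and 239 and 156 under YZ9. Bgn, the small proteoglycan biglycan, which the gap rule names, was at 90.8 and 103 CPM in controls, 12.6 and 10.4 under PD, and 29.1 and 7.28 under YZ9 (log2 fold change -2.71, SE 0.49). Tnc, the matrix protein tenascin-C, named after its values were seen, was at 315 and 227 CPM in controls and between 37.6 and 90.0 CPM in treated libraries. Exons of Nid1 and Tnc overlap genes on the opposite strand.

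Of 18 kept genes of proteases, plasminogen activators and their inhibitors, 9 lay below both controls (50%, against 10.2% of all genes). Only 1 lay above (5.56%, against 8.37%). The median log2 fold change of the list was -0.73, and -0.47 in the male libraries alone. Mmp2, a gelatinase that degrades basement membrane, was at 183 and 138 CPM in controls, 61.2 and 62.9 under PD, and 99.5 and 62.4 under YZ9 (log2 fold change -1.17, SE 0.24). Serpine2, an inhibitor of thrombin and plasminogen activators, was at 233 and 238 CPM in controls, 148 and 127 under PD, and 110 and 104 under YZ9 (log2 fold change -0.95, SE 0.16). Both plasminogen activators were below as well: Plat was at 195 and 163 CPM in controls and between 86.2 and 145 CPM in treated libraries, and Plau, at 3.59 and 2.97 CPM in controls, between 0.603 and 1.61 CPM. Enzymes and their inhibitors thus lay on the same side, since Timp1, an inhibitor of metalloproteinases, was at 35.6 and 35.4 CPM in controls and between 14.5 and 21.7 CPM in treated libraries. Mmp15, a membrane-bound metalloproteinase, was the member of this list above, and only just, at 2.55 and 2.44 CPM in controls and between 2.61 and 12.3 CPM in treated libraries.

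Genes of cholesterol synthesis that cleared the controls all lay above. Of 25 kept members 12 lay above both controls (48%, against 8.37% of all genes) and 0 below. The median log2 fold change was 0.59, and 0.39 in the male libraries alone. In those libraries 13 lay above and 1 below, and with the treated libraries of replicate 2 alone 19 and 1. Neither number above could fall under 12. Of all genes 2735 and 3084 then lay above, against 1304 with every library. Insig1, which holds the sterol sensor in the endoplasmic reticulum and is itself a target of SREBP, was at 20.7 and 22.6 CPM in controls, 55.5 and 77.6 under PD, and 29.1 and 60.2 under YZ9 (log2 fold change 1.36, SE 0.37). Sqle, squalene epoxidase, was at 230 and 227 CPM in controls, 351 and 450 under PD, and 275 and 387 under YZ9 (log2 fold change 0.68, SE 0.20). Lss, which closes the sterol rings, was at 48.7 and 34.4 CPM in controls and between 53.5 and 93.1 CPM in treated libraries. These steps were modest in size but in the same direction in all 4 treated libraries. Of 15 fatty acid synthesis genes only Scd2 and Elovl5 lay above both controls (13.3%, against 8.37% of all genes).

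Several targets of p53 lay below the controls. Of 24 kept members 11 lay below both controls (45.8%, against 10.2% of all genes). Sesn1, Rrm2b and Ddb2 lay above (12.5%, against 8.37%). The median log2 fold change of the list was -0.24, and -0.37 without YZ9 replicate 1. Btg2, an antiproliferative gene that is also an immediate early gene, was at 447 and 600.2 CPM in controls, 246 and 128 under PD, and 200.4 and 191 under YZ9 (log2 fold change -1.45, SE 0.25). Cdkn1a, the p21 inhibitor of cyclin-dependent kinases, was at 652 and 684 CPM in controls, 331 and 359 under PD, and 423 and 273 under YZ9 (log2 fold change -0.95, SE 0.17), and its exons overlap a gene on the opposite strand. Mdm2, which targets p53 for degradation, was at 381 and 418 CPM in controls and between 248 and 344 CPM in treated libraries. Of 16 genes of G1 control 1 lay above, Cdkn2c at under 1 CPM in every library, and 5 lay below (31.2%, against 10.2% of all genes), among them Cdk6, which drives entry into S phase, and Cdkn1c, which restrains it. Genes of the cycle itself did not follow: 0 of 20 S phase genes lay beyond both controls, and of 20 G2 and M phase genes only Bub1b did, above.

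**Figure D4:**
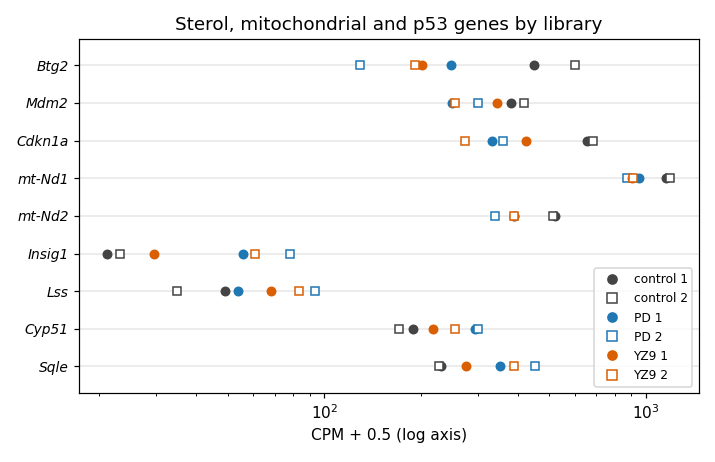
CPM plus 0.5 (log axis) in each library for 4 cholesterol genes, 2 mitochondrially encoded genes and 3 p53 targets, with symbols by group and replicate as in the legend. The cholesterol genes have all 4 treated libraries to the right of both controls and the other 5 genes have them to the left.

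Among patterning genes, early Hox genes lay above the controls. Of 18 kept Hox, Cdx and Meis genes 4 lay above both controls (22.2%, against 8.37% of all genes) and 0 below. Their median log2 fold change was 1.4. This median was 0.43 in the male libraries alone and 0.65 with the treated libraries of replicate 2 alone. Hoxb1, a homeobox gene of the earliest Hox activation in the streak, was at 1.24 and 0.789 CPM in controls, 62.4 and 10.8 under PD, and 6.36 and 45.6 under YZ9 (log2 fold change 4.94, SE 1.15). It was highest in replicate 1 with PD and in replicate 2 under YZ9, unlike the epithelial genes. Hoxb2 was at 5.65 and 4.89 CPM in controls and between 8.15 and 18.2 CPM in treated libraries, and Hoxb4 at 2.81 and 2.89 CPM and between 3.54 and 12 CPM. Exons of Hoxb2 overlap an antisense gene. Of 14 retinoic acid genes 3 lay above both controls (21.4%, against 8.37% of all genes). These were Stra6, the retinol transporter, the synthesis enzyme gene Aldh1a2 and Crabp2, which carries retinoic acid to the nucleus. Aldh1a2 was at 72.2 CPM in PD replicate 1 and at most 1.12 CPM in every other library, so its level rests on that library. It had under 10 counts in each control, so the filter kept it only through treated libraries. Of 13 WNT targets 3 lay above (23.1%, against 8.37% of all genes), Axin2, Lgr5 and Nkd1, and 0 below. Shares of lists this short rest on few genes. Axin2, a feedback inhibitor of WNT, was at 1.76 and 2.18 CPM in controls, 4.07 and 3.58 under PD, and 8.15 and 6.47 under YZ9, with exons that overlap a gene on the opposite strand. Peg10, an imprinted gene derived from a retrotransposon, was at 138 and 99.0 CPM in controls, 249 and 252 under PD, and 292 and 339 under YZ9 (log2 fold change 1.25, SE 0.20).

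Genes of Notch signalling and of the mesoderm lineages lay on both sides, in differing shares. Of 17 Notch pathway genes 4 lay below both controls (23.5%, against 10.2% of all genes) and 1 above (5.88%, against 8.37%). Jag1, a Notch ligand, was at 143 and 167 CPM in controls, 22.2 and 9.21 under PD, and 50.4 and 29.5 under YZ9 (log2 fold change -2.48, SE 0.53). Hes1, a repressor that Notch induces, was at 83.2 and 84.8 CPM in controls, 47.2 and 37.0 under PD, and 53.2 and 43.0 under YZ9 (log2 fold change -0.90, SE 0.17). With Jag1 the PD libraries were the lower. The member above was Dll3, another Notch ligand, which was low in every library, at 0.3 and 0.451 CPM in controls and between 0.461 and 1.01 CPM in treated libraries. Of 26 cardiac genes 6 lay below (23.1%, against 10.2% of all genes) and 0 above. Mef2c, a transcription factor of the heart field, was at 183 and 201 CPM in controls, 66.9 and 31.1 under PD, and 122 and 82.9 under YZ9. Of 20 endothelial genes 3 lay below (Fli1, Pecam1, Tie1), which is 15% against 10.2%. Cldn5 lay above (5%, against 8.37%). The list of lateral and extraembryonic mesoderm had 2 of 19 above and 2 below (10.5% each), near the shares of all genes. That of paraxial mesoderm and somites had 2 of 11 above (18.2%) and 3 below (27.3%). The 2 above, Dmrt2 and Aldh1a2, had under 10 counts in each control and were kept only through treated libraries. Of 21 blood genes 5 lay below (23.8%, against 10.2% of all genes) and 0 above. Those below were Runx1 and 4 genes of the platelet lineage (Tubb1, Pf4, Gp1bb, Gp9). Globins overlapped instead: Hba-x, the embryonic alpha globin, ranged from 2.78 CPM in YZ9 replicate 1 to 4954 CPM in control replicate 2. Of 30 targets of ERK feedback 7 lay below (23.3%, against 10.2% of all genes) and 0 above. Dusp6 was at 240.3 and 226 CPM in controls, 4.38 and 1.13 with PD and 234 and 100.1 under YZ9. It overlapped because YZ9 replicate 1 lay between the controls. Etv4 and Etv5, ETS factors downstream of ERK, had 0 counts under PD and overlapped through their YZ9 libraries too.

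Mitochondrially encoded RNA lay below the controls in treated libraries. All 7 kept members lay below both controls (100%, against 10.2% of all genes), with a median log2 fold change of -0.32. mt-Nd2, a subunit of complex I, was at 519 and 512 CPM in controls, 388 and 337 under PD, and 389 and 388 under YZ9 (log2 fold change -0.46, SE 0.12). mt-Nd1, another, was at 1152 and 1189 CPM in controls and between 872 and 949 CPM in treated libraries. The summed level was 7990 to 8788 CPM in controls and 6183 to 7108 CPM in treated libraries. Of 33 ribosomal protein genes 4 lay below (12.1%, against 10.2% of all genes) and 0 above. Their summed level was 18510 to 20590 CPM in controls and 17170 to 19220 CPM in treated libraries. Levels of these 2 groups can reflect RNA quality, and their part in the other results was not tested.

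Within the 2900 genes, which the controls had a part in choosing, the inhibitors were compared with each other in the model of 3 groups, where the controls add to the estimate of the spread. PD and YZ9 libraries overlapped for 817 of the 1304 genes above the controls. Of the rest, both PD libraries were above both YZ9 libraries for 244 and below for 243, and over all genes kept such a separation held for 42.8%. Among the 1596 genes below the controls 920 overlapped, PD was above YZ9 for 340 and below for 336. By edgeR 4 of the 2900 genes (0.138%) differed between the inhibitors at an adjusted p under 0.05, where 19 of all genes kept did (0.122%), so the share was near the background. Tubb1, a tubulin of platelets, was at 17.3 and 20.8 CPM in controls, 2.54 and 2.49 under PD, and 0.269 and 0.303 under YZ9, and was higher with PD than with YZ9 (log2 difference 3.11, SE 0.34, adjusted p = 0.0496). Vnn1, a pantetheinase, was at 43.4 and 44.2 CPM in controls, 299 and 214 under PD, and 51.3 and 64.7 under YZ9 (log2 difference 2.15, SE 0.22, adjusted p = 0.0442). Emp3, a membrane protein, was at 99.9 and 109.6 CPM in controls, 72.1 and 97.5 under PD, and 21.6 and 16.1 under YZ9 (log2 difference 2.17, SE 0.23, adjusted p = 0.0496). Vnn1 under YZ9 and Emp3 with PD were thus close to the controls. Spry4, a feedback inhibitor of receptor signalling, had 0 counts with PD and 664 under YZ9, at least 217-fold lower with PD (adjusted p = 0.0281). The number of such genes was 0 without either control or without YZ9 replicate 1, 1 without YZ9 replicate 2, 2 with DESeq2 size factors and 1 with the replicate number as a block.

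Some genes had almost the same mean with both inhibitors. Fibin differed by 0.001 on the log2 scale between PD and YZ9 (SE 0.67), Slc2a3 by -0.02 (SE 0.31), Efna1 by -0.01 (SE 0.23) and Gask1b by -0.02 (SE 0.41). These genes were chosen for the small difference, and with such errors they are not shown to respond equally. Efna1, an ephrin ligand, was at 14.0 and 11.8 CPM in controls, 32.7 and 25.0 under PD, and 27.2 and 30.8 under YZ9 (log2 fold change 1.16, SE 0.20). Both inhibitors are set against the same 2 controls, so a low or high control value moves both in the same way.

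The condition that all 4 treated libraries clear both controls is sharp. With a log2 fold change of at least 1 either way, the genes just inside were Msx2, a homeobox gene that BMP induces, Cd82 and Klc2. Msx2 was at 58.4 CPM in its higher control and 58.5 CPM in its lowest treated library. Just outside were P2ry1, Rin1 and Rgs10. P2ry1, a receptor for ADP, was at 9.62 CPM in its lower control and 9.65 CPM in its highest treated library. Genes with few counts on a side also clear the line readily, in part because of the filter. Of 536 genes with under 10 counts in every control 206 lay above, and these were kept only through treated libraries. Of 103 with under 10 counts in every treated library 101 lay below. The filter keeps such genes only with at least 10 counts in both controls, so that number was nearly fixed in advance.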

How the data were processed

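Polyadenylated RNA of 6 mouse mesoderm explant libraries was sequenced with a low-input template-switching kit without strand, per the labels' protocols. The submitters' processing notes name GRCm38 and the tools STAR 2.7.9a, CASAVA 1.8.2 and DESeq2 1.40.1. How reads were counted, on which annotation, is not given in the sources used here. A deposited table sets PD, and another YZ9, against the same controls. Per the file headers they hold counts, which were joined by Ensembl ID. The deposited normalized columns (a signal of counts over size factors), log2 fold changes, test scores and p-values of the authors were not used.

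Genes with at least 10 counts in at least 2 libraries were kept and scaled by TMM. The model of edgeR 4.0.16 in R 4.3.3 had side as its term, was fitted with glmQLFit and tested 2-sided with glmQLFTest, with Benjamini-Hochberg adjustment over 15585 genes (threshold 0.05). A model of 3 groups gave PD and YZ9 separately. Intervals and floors (3 counts) cover counting error only. Alternatives were other scalings and filters, DESeq2 1.42.0, limma-trend (limma 3.58.1, prior count 3), other models and fewer libraries. The fit was tested on simulated data.

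Genes were named by a rule: the 12 widest gaps in each direction, up to 4 members of each list beyond both controls, genes most and least different between the inhibitors, and Pfkfb3, Slc2a1, Hk2, Ldha, Dusp6, Spry4, Etv4 and Etv5. Other genes were chosen after their values were seen. Members and lists were chosen with earlier results of these data known. Positions come from GENCODE M21, which held 15530 of the 15585 genes. Some genes that these rules name are not reported here.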

Additional observations from a re-analysis of the deposited data

Results flagged for a closer look

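Among 130 genes named here, 9 had a treated library that stood apart from the other treated libraries by more than Dixon's 95% limit for groups of 4; chance flags about 1 in 20 groups. In PD replicate 1 Aldh1a2 was at 72.2 CPM (0.402 to 1.12 CPM in the other 3) and Tmprss2 at 18.4 CPM (2.90 to 3.45 CPM), and in PD replicate 2 mt-Nd2 was at 337 CPM (388 to 389 CPM) and Twist1 at 3.18 CPM (12.5 to 14.4 CPM). In YZ9 replicate 1 Hoxb2 was at 8.15 CPM (16.2 to 18.2 CPM) and Mmp2 at 99.5 CPM (61.2 to 62.9 CPM). In YZ9 replicate 2 Fn1 was at 632 CPM (909 to 927 CPM), Lpar4 at 20.7 CPM (31.0 to 33.5 CPM) and Timp1 at 14.5 CPM (20.6 to 21.7 CPM). Twist1 overlapped the controls, and the other 8 genes lay beyond both with that library included.

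The responses to the inhibitors differed by the test of PD against YZ9 for 4 genes on the same side of the controls. The log2 difference of PD minus YZ9 was 3.11 for Tubb1, 2.15 for Vnn1 and 2.17 for Emp3, and Spry4 was at least 217-fold lower with PD.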

How the results depend on the processing

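The pooled test called 157 genes higher and 156 lower with DESeq2, 0 and 1 in the model of 3 groups, 2 and 0 in the male libraries alone, and 15 and 50 with the treated libraries of replicate 2 alone; it called 0 in both directions under the other 9 alternatives with every library, and 0 to 1 higher and 0 to 1 lower with a library left out, where a lone library is assumed to vary like the rest. The set with replicate 2 of the treated libraries and a newer quasi-likelihood fit, one of the 9, were added after the data were seen. The causes were not tested. Genes above and below both controls numbered 2735 and 2898 in the male libraries, 3084 and 3343 with replicate 2 of the treated libraries, and 159 and 313 with a gap of at least 0.5; with a library left out they ranged from 1720 to 3728 and from 1932 to 3715, where fewer values must hold their side. Without the filter they numbered 1658 and 2049. Genes that differed between PD and YZ9 numbered 2 with DESeq2 size factors and 0 to 5 with a library left out.

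The 8 list medians given kept their sign except glycolysis, which ranged from -0.0133 to 0.292 with a library left out. The median for p53 targets was -0.336 in the model of 3 groups, -0.359 with replicate 2 of the treated libraries and -0.37 to -0.205 with a library left out. For Hox genes it was 0.431 in male libraries, 0.653 with replicate 2 of the treated libraries and 1.04 to 1.66 with a library left out. The epithelial median was 1.91 with replicate 2 of the treated libraries, and that of cholesterol genes 0.386 in male libraries. Of 130 genes named, 10 changed direction in an alternative, and all 10 had overlapping sides. With limma-trend Ldha was at -0.0524 and Slc16a3 at -0.018. With sex in the model and in male libraries, Ldha was at -0.349 and -0.339, Pfkfb3 at 0.376 and 0.389, Etv5 at 0.458 and 0.474, Snai2 at -0.292 and -0.284, Twist1 at 0.116 and 0.125, and Slc16a3 at -0.028 and -0.014 (Snai2 0.923 and Twist1 -0.225 with all libraries). With a library left out the ranges were -0.236 to 0.154 for Ldha, -0.678 to 0.508 for Pfkfb3, -1.80 to 0.275 for Etv5, -2.20 to 0.267 for Etv4, -0.665 to 0.34 for Snai1, -0.402 to 0.0868 for Twist1, -0.126 to 0.43 for Cdh2 and -0.477 to 0.785 for Slc16a3. Krt18 was at -0.0448 with replicate 2 of the treated libraries.

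Replicate numbers did not pair the samples throughout. Deviations of same-numbered libraries correlated at -0.16 for control and PD, but at 0.376 for control and YZ9 and 0.443 for PD and YZ9. Same-numbered PD and YZ9 libraries also read as the same sex. With the replicate number as a block, 0 genes were called in the pooled test, 1 of the 2900 differed between PD and YZ9, and Ldha was at -0.0411.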

Other observations

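Both caveolins, which build the membrane pits called caveolae, lay below the controls. Cav1, which forms the coat, was at 148 and 164 CPM in controls, 81.0 and 60.3 under PD, and 24.2 and 12.3 under YZ9, and Cav2, its partner, at 14.2 and 22.1 CPM in controls and between 2.56 and 10.6 CPM in treated libraries. They were the 2 members below among 8 kept genes of the caveolae list (25%, against 10.2% of all genes). Only 1, Pacsin3, lay above (12.5%, against 8.37%). Thbd, the thrombin receptor thrombomodulin, was at 411 and 608 CPM in controls, 228 and 46.0 under PD, and 77.5 and 22.0 under YZ9.

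Targets of ATF4, a transcription factor of the amino acid response, were split. Of 29 kept members 5 lay above both controls (17.2%, against 8.37% of all genes) and 4 below (13.8%, against 10.2%). Among those above were Psph, which makes serine, and Slc7a5 and Slc3a2, which form an amino acid transporter. Nupr1, a stress-induced gene, was at 51.2 and 88.6 CPM in controls, 7.88 and 9.98 under PD, and 25.8 and 5.97 under YZ9. Of 15 genes of hexosamine and glycosylation pathways 4 lay above (26.7%, against 8.37% of all genes) and 2 below (13.3%, against 10.2%). Uap1l1, related to the enzyme that makes UDP-N-acetylglucosamine, was at 7.79 and 6.69 CPM in controls, 29.9 and 17.3 under PD, and 11.4 and 11.3 under YZ9.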
